A study of Homo sapiens with 3 samples.

Results

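Genes of glucose uptake, glycolysis, lactate formation and the control of pyruvate were examined in 3 Hodgkin's lymphoma (HL) cell lines. A list of 41 gene symbols was used, and every transcript cluster of the array whose annotated gene, alone or among several, was on the list was taken. This gave 43 clusters of the 16840 clusters with a gene symbol (22011 clusters in all), covering 36 of the 41 symbols. GAPDH, PGAM1, SLC16A1 and SLC16A3 have no cluster named here, and PKM2 is the older symbol of PKM, which was found. A transcript cluster summarises the probes for the exons of a gene, and 34 of the 43 clusters belonged to a single gene while 9 were shared with another gene or a pseudogene.

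L-540, L-428 and HDLM-2 are established HL cell lines, and each was measured on 1 Human Exon 1.0 ST array with total RNA from cultured cells. The sample descriptions of L-428 and HDLM-2 name a treatment with vorinostat, an inhibitor of histone deacetylases, and that of L-540 names none, whereas the text of the paper gives no treatment for these arrays. In a comparison with L-540, line and treatment therefore cannot be told apart. The descriptions of L-428 and HDLM-2 both name vorinostat, and whether the cells of either were treated is not known. With 1 array per line there is no replicate error, no test between lines was made, and all differences are descriptions of these 3 arrays.

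Glycolysis splits glucose into pyruvate with a small yield of ATP. Proliferating lymphoid cells and many tumors run it at a high rate even with oxygen present and turn much of the pyruvate into lactate. The alternative is entry of pyruvate into the mitochondrion, where the pyruvate dehydrogenase complex makes acetyl-CoA. Most steps have several isoenzymes encoded by separate genes, which differ in tissue, kinetics and control.

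Signals are on the linear scale and were made with RMA, as the paper and the processing notes state. A signal above 100 was counted as expressed, a limit that the study used for probe sets of endogenous retroviruses. Of 8 HL markers, 3 were above it in L-540 and 5 in each of L-428 and HDLM-2. TNFRSF8 (CD30) was above it in every line (158, 145 and 158 in L-540, L-428 and HDLM-2), whereas FUT4, which makes the CD15 epitope, had at most 24.4. None of the listed markers of B cells, T cells, myeloid cells, red cells, skeletal muscle or testis exceeded 28.9. Over all clusters the medians were 7.41 (L-540), 9.18 (L-428) and 7.16 (HDLM-2), with a shift of 0.31 on the log2 scale between L-428 and L-540, and the highest signal was 5776 in L-428 and 13263 in L-540. RMA includes a quantile normalization, so arrays processed together would share a distribution at the probe level, and how these values came to differ was not tested. Differences were therefore also computed after shifting the arrays to one median and after quantile normalization, and those that changed a call or a stated direction are given beside the value. Of the 43 clusters, 13 held the same value in all 3 lines (30.2%, against 39.0% of all clusters with a symbol), and ties of this kind do not show equal expression.

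Glycolysis genes were among the strongly hybridizing clusters. In L-540, 10 of 43 were above 100 (23.3%) against 4.02% of all clusters with a symbol. In L-428, 12 were above it (27.9%) against 6.69%, and in HDLM-2 10 (23.3%) against 3.56%. In total 13 clusters exceeded 100 in at least 1 line and 8 did so in all 3, namely SLC2A1, GPI, ALDOA, PGK1, ENO1, ENO2, PKM and LDHA. The other 30 clusters ranged from 1.62 to 87.4. Near the limit, LDHB had 98.1 in HDLM-2 and PDK3 87.4 in L-428, while PFKP had 124 in HDLM-2.

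**Figure D1:**
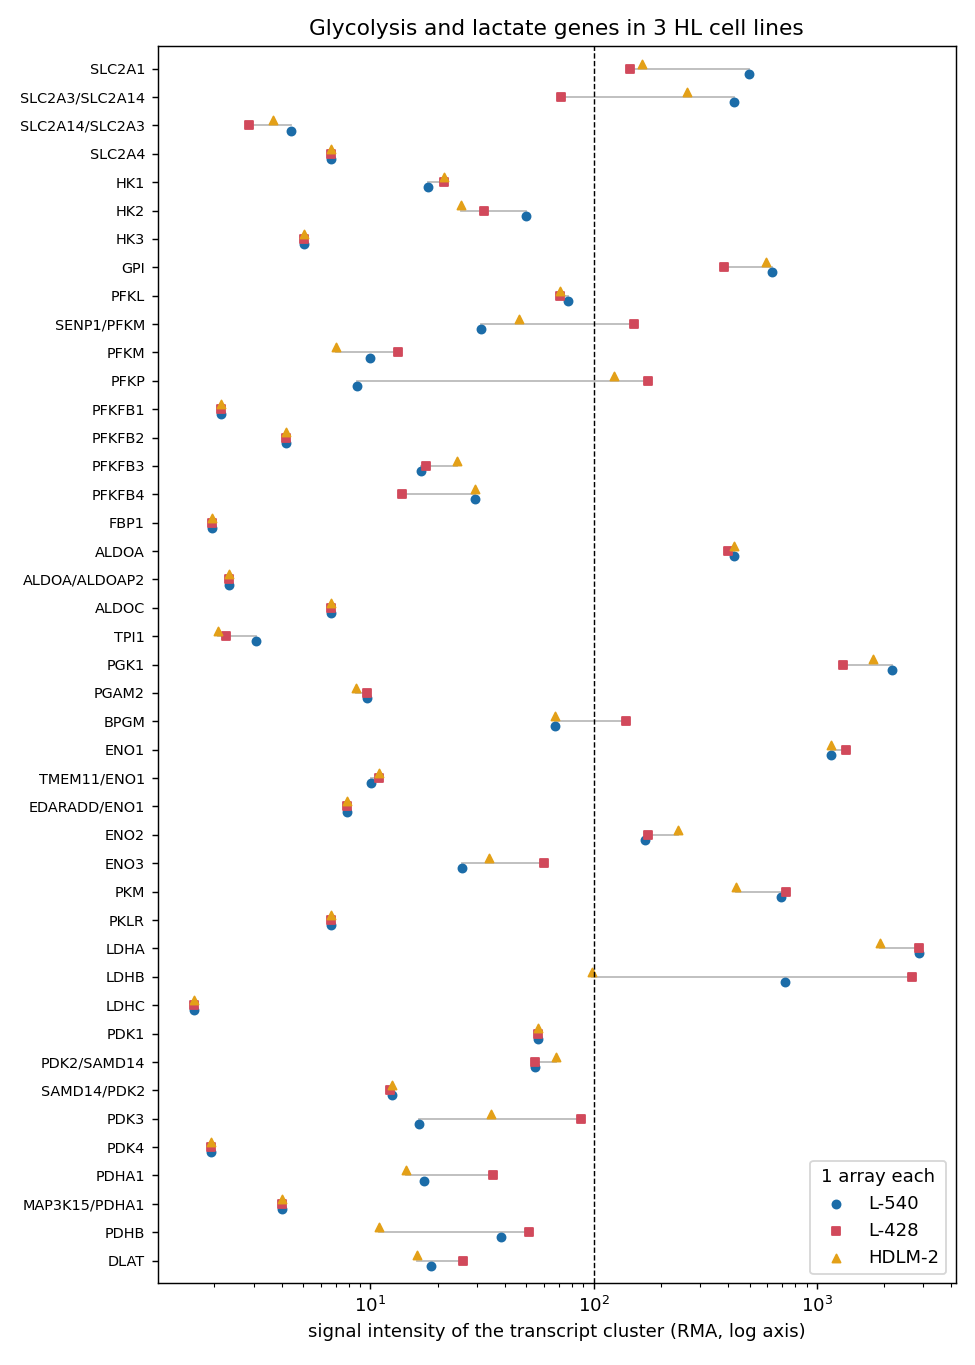
Signal intensity (log axis) of all 43 clusters in L-540 (circles), L-428 (squares) and HDLM-2 (triangles), 1 array each, in the order of the pathway. The dashed line marks 100. LDHB and PFKP have the widest gray bars, which join the lowest and the highest line, and 13 clusters have 3 identical values.

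Differences between lines were counted at 2-fold or more with the higher value above 100. In L-428 against L-540, 4 clusters were higher (9.30%, background 3.31%) and 2 lower (4.65%, background 0.742%). In HDLM-2 against L-540, 1 was higher (2.33%, background 0.665%) and 2 were lower (4.65%, background 0.974%). In HDLM-2 against L-428, 1 was higher (2.33%, background 0.748%) and 3 were lower (6.98%, background 3.8%). With 1 to 4 clusters in each direction, these shares are not read as standing apart from the background. The clusters concerned were 6, for SLC2A1, SLC2A3, PFKM, PFKP, BPGM and LDHB. The remaining members above 100, from GPI to LDHA, lay within 2-fold in every pair of lines.

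The glucose transporter clusters above 100, of SLC2A1 and SLC2A3, had their highest signals in L-540. SLC2A1 encodes GLUT1, the widely expressed basal transporter, and had 496 (L-540), 146 (L-428) and 165 (HDLM-2). L-540 was thus 3.40-fold above L-428 and 3.01-fold above HDLM-2, while L-428 and HDLM-2 differed by 1.13-fold. SLC2A3 encodes GLUT3, a transporter with high affinity for glucose, and its main cluster had 424 (L-540), 71.7 (L-428) and 261 (HDLM-2). Here L-428 alone was under 100, 5.91-fold below L-540 and 3.64-fold below HDLM-2. L-540 and HDLM-2 differed by 1.62-fold. This cluster is shared with SLC2A14, a near copy of SLC2A3, so its signal cannot be assigned to either gene. A second cluster of the same pair of genes held 4.41, 2.85 and 3.64 in L-540, L-428 and HDLM-2. SLC2A4 (GLUT4), the insulin-regulated transporter of muscle and fat, had 6.66 in each line. Among transporters outside the members, SLC2A5 had 14.7, 32.1 and 34.7 in L-540, L-428 and HDLM-2, and SLC2A8 had 13.3, 15.4 and 15.4.

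The hexokinases trap glucose in the cell by phosphorylation, and none of their clusters reached 100. HK2, the inducible form, had 49.7 (L-540), 32.1 (L-428) and 25.4 (HDLM-2). Its order had L-540 on top under each scaling, whereas L-428 and HDLM-2 changed places with the arrays at one median or quantile normalized. HK1, the ubiquitous form, had 18.2, 21.4 and 21.4 in L-540, L-428 and HDLM-2, and L-428 lay below L-540 under both other scalings. HK3, found mainly in myeloid cells, had 5.05 in each line. GPI, which converts glucose 6-phosphate to fructose 6-phosphate, had 631 (L-540), 385 (L-428) and 590 (HDLM-2). The difference of L-428 from L-540 was -0.71 as deposited, and it passed 2-fold with the arrays at one median (-1.02) and with quantile normalization (-1.14). HDLM-2 passed 2-fold over L-428 with quantile normalization alone (1.21 on the log2 scale).

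Phosphofructokinase commits fructose 6-phosphate to glycolysis, and among its clusters that of PFKP had the widest range. PFKP, the platelet-type subunit that is also common in tumors, had 8.67 (L-540), 176 (L-428) and 124 (HDLM-2). L-540 lay near the median of all clusters, where no order is read, so the size of its difference from the other lines depends on the processing. The log2 differences from L-540 were 4.34 (L-428) and 3.83 (HDLM-2) as deposited, and 1.94 and 1.57 with an offset of 50 added to each signal. The difference between L-428 and HDLM-2 was only 1.42-fold and changed sign with quantile normalization. PFKL, the liver-type subunit, had 76.7, 70.7 and 70.7 in L-540, L-428 and HDLM-2, below 100 in each. PFKM, the muscle-type subunit, had 9.95, 13.3 and 6.97 on its own cluster. A second cluster, shared with SENP1, a SUMO protease gene, had 31.4 (L-540), 151 (L-428) and 46.5 (HDLM-2). L-428 was 4.83-fold above L-540 and 3.26-fold above HDLM-2 on it, the latter under 2-fold with quantile normalization (log2 difference -0.88 for HDLM-2 minus L-428). Which of its 2 genes gave this signal cannot be told from it, and the cluster of PFKM alone had at most a 1.91-fold difference. PFKP was therefore the sole phosphofructokinase cluster of a single gene above 100, in L-428 and HDLM-2, and in L-540 no cluster of the enzyme was above 100.

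The bifunctional enzymes of the PFKFB family set the level of fructose 2,6-bisphosphate, which activates phosphofructokinase, and all 4 stayed below 30. PFKFB3, whose kinase activity prevails, had 16.9 (L-540), 17.8 (L-428) and 24.3 (HDLM-2). PFKFB4 had 29.4 in L-540 and HDLM-2 and 13.9 in L-428. PFKFB1 and PFKFB2 had 2.14 and 4.19 in every line. FBP1, the gluconeogenic enzyme that opposes phosphofructokinase, had 1.95 in every line.

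In the lower part of the pathway, the main clusters of ALDOA, PGK1, ENO1, ENO2 and PKM stayed within 2-fold in every pair of lines as deposited. ALDOA, the aldolase of muscle and most other cells, had 426 (L-540), 400 (L-428) and 426 (HDLM-2). The brain aldolase ALDOC had 6.66 in each line, the value also held by SLC2A4 and PKLR and by 23 clusters in all. PGK1, which makes the first ATP of the pathway, had 2171 (L-540), 1316 (L-428) and 1781 (HDLM-2). L-428 was lowest for PGK1 under each scaling, by 1.65-fold against L-540 as deposited, and past 2-fold with the arrays at one median (log2 difference -1.03). ENO1, the ubiquitous enolase, had 1158, 1352 and 1158 in L-540, L-428 and HDLM-2, and the small excess in L-428 changed sign under both other scalings. ENO2, the neuronal enolase that many tumors express, had 170, 175 and 239 in the same order. HDLM-2 was highest, by 1.41-fold over L-540 and 1.36-fold over L-428, and the latter reached 2-fold with quantile normalization (1.22 on the log2 scale). The muscle enolase ENO3 had 25.8, 60.1 and 34.1. PKM, the pyruvate kinase of most tissues and tumors, had 692 (L-540), 730 (L-428) and 435 (HDLM-2). HDLM-2 was lowest for PKM under each scaling, while the order of L-428 and L-540 changed. A cluster cannot separate the M1 and M2 splice forms of PKM. The liver and red cell gene PKLR had 6.66 throughout.

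TPI1 and the mutases had low or middle signals. TPI1, triose phosphate isomerase, had 3.07 (L-540), 2.25 (L-428) and 2.08 (HDLM-2). A single gene serves this step in human cells, so a low signal of a cluster is not read as a missing enzyme here. BPGM, which makes the 2,3-bisphosphoglycerate of red cells, had 140 in L-428 and 67.3 in both other lines. This 2.08-fold difference fell below 2-fold with the arrays at one median (log2 difference 0.74 from L-540) and with quantile normalization (0.40). None of the 3 red cell markers with a cluster exceeded 4.52. The muscle mutase PGAM2 had 9.66, 9.66 and 8.59.

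**Figure D2:**
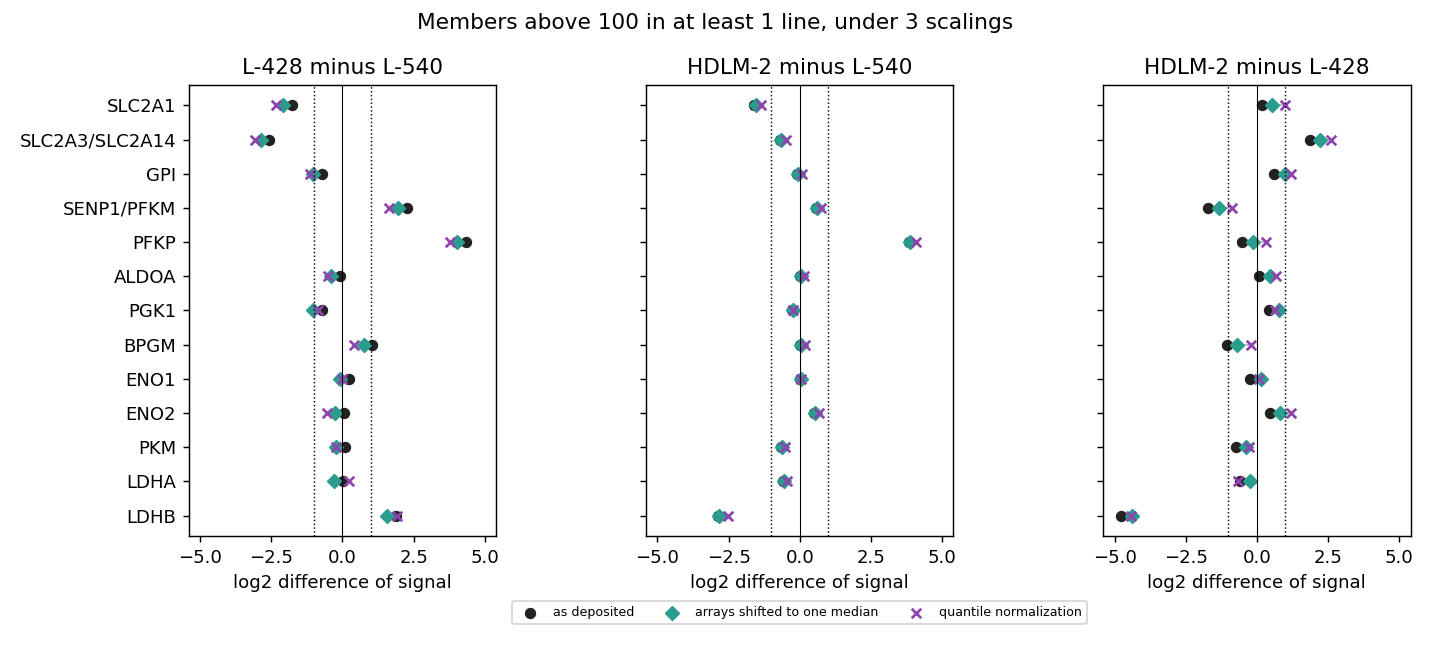
Log2 difference of the signal between each pair of lines for the 13 clusters above 100 in at least 1 line, as deposited (circles), with arrays shifted to one median (diamonds) and after quantile normalization (crosses). Dotted lines mark 2-fold. LDHB, PFKP, SLC2A1 and the SLC2A3/SLC2A14 cluster keep their side of 2-fold under all 3 scalings wherever they pass it as deposited.

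The lactate dehydrogenase genes differed most between the lines, and they differed through LDHB. LDHA encodes the M subunit, whose tetramers favor the formation of lactate, and LDHB the H subunit, common in heart and oxidative tissue, whose tetramers favor lactate oxidation. LDHA had 2873 (L-540), 2877 (L-428) and 1920 (HDLM-2). HDLM-2 was lowest, with a log2 difference of -0.58 from each other line, and L-540 and L-428 had no stable order under the scalings. LDHB had 721 (L-540), 2660 (L-428) and 98.1 (HDLM-2). L-428 was thus 3.69-fold above L-540 and 27.1-fold above HDLM-2, the largest range among the 43 clusters, and L-540 was 7.35-fold above HDLM-2. These differences were 1.88, -4.76 and -2.88 on the log2 scale (L-428 minus L-540, HDLM-2 minus L-428, HDLM-2 minus L-540). They were 1.57, -4.40 and -2.83 with the arrays at one median and 1.90, -4.44 and -2.53 with quantile normalization. The testis gene LDHC had 1.62 in each line.

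Signals of different clusters depend on their probes, so the amounts of LDHA and LDHB in a line cannot be compared, but a change of their ratio between lines can. The log2 ratio of LDHA to LDHB was 1.88 lower in L-428 than in L-540 (a log2 difference of -1.88), 2.30 higher in HDLM-2 than in L-540 and 4.18 higher in HDLM-2 than in L-428, which is an 18.1-fold change of the ratio. With quantile normalization these values were -1.67, 2.11 and 3.77. As deposited LDHA alone was above 100 in HDLM-2, with LDHB at 98.1, whereas both genes were above it in L-540 and L-428. With the arrays at one median or quantile normalized, 11 members instead of 10 were above 100 in HDLM-2. LDHB, the first below the limit, was the one added, so the signal above 100 does not separate HDLM-2 from the other lines here. RefSeq names 6 pseudogenes of LDHA and 3 of LDHB, and whether their transcripts add to the signals was not tested.

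The stretch before the start site of each gene is shown because the hypoxia factor HIF-1 is known to act on the LDHA promoter. A form of the core of its response element, ACGTG, was searched on both strands, and other forms were not. The E-box CACGTG, which contains ACGTG and is bound by MYC and related factors, was searched as well. Matches to ACGTG are in capitals in the 250 bases before the annotated start (RefSeq, GRCh38.p14, 5′ to 3′ on the strand of the gene). The stretch of LDHA is chr11:18394313-18394562 on the plus strand, for the upstream one of its 2 starts, that of LDHB chr12:21657843-21658092 on the minus strand and that of SLC2A1 chr1:42958869-42959118 on the minus strand.
LDHA: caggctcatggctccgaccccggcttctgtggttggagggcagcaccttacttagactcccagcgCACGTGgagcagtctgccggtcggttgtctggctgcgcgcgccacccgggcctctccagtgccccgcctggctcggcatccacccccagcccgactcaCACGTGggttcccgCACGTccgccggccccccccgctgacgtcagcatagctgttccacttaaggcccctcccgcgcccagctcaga
LDHB: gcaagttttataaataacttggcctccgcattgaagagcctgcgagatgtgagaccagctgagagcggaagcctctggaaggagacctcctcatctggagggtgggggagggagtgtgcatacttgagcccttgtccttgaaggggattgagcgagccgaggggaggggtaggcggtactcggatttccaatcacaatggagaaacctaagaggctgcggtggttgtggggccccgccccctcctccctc
SLC2A1: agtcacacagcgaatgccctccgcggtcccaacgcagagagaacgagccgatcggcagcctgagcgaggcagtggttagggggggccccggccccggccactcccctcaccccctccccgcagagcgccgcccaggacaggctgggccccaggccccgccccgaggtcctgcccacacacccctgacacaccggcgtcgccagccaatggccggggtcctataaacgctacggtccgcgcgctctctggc

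The LDHA stretch held ACGTG, on either strand, at 3 places, beginning 185, 87 and 73 bases before the start, and 2 of them were complete E-boxes. The other LDHA start, LDHB and SLC2A1 had no match in this window, which says only that these letters are not in it. Over the window from 250 bases before to 50 after the start, 36 of the 41 symbols had a promoter in the table, with 67 starts. Of these starts, 25 held ACGTG (37.3%), against 21.4% of all 35116 promoters, and 9 held CACGTG (13.4%) against 7.26%. Several of the starts of a gene overlap, and the members have more starts per gene than the table as a whole. A match is a description of the letters and no binding site.

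**Figure D3:**
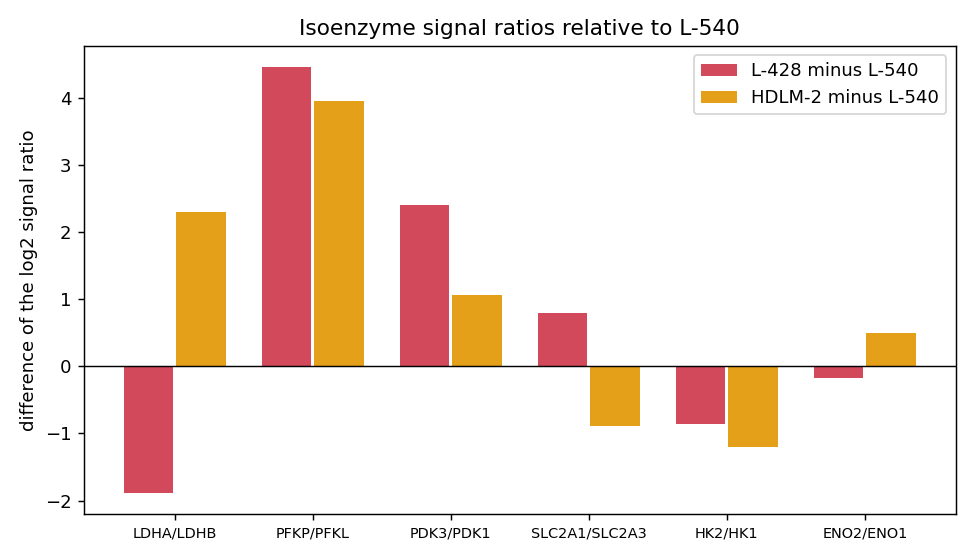
Difference of the log2 signal ratio of 2 isoenzymes or transporters in L-428 and in HDLM-2 from that in L-540 (bars, no error, 1 array per line, both comparisons sharing the L-540 array). LDHA/LDHB moves in opposite directions (-1.88 and 2.30), and PFKP/PFKL is higher in both lines (4.46 and 3.95, or 2.01 and 1.64 with an offset of 50). The signal of SLC2A3 is the cluster shared with SLC2A14. PDK1 had the same value in every line, so the bars of PDK3/PDK1 show PDK3 alone (2.41 and 1.07, or 1.05 and 0.35 with an offset of 50). ENO1 had the same value in L-540 and HDLM-2, so the HDLM-2 bar of ENO2/ENO1 shows ENO2 alone.

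Ratios of other isoenzymes were compared in the same way. PFKP to PFKL was higher than in L-540 in both lines, by log2 differences of 4.46 (L-428) and 3.95 (HDLM-2) as deposited and of 2.01 and 1.64 with the offset of 50, since PFKP in L-540 was near the array median. HDLM-2 minus L-428 was -0.51, which is the difference of PFKP alone, since PFKL had the same value in these 2 lines. SLC2A1 to SLC2A3 was higher in L-428 than in L-540 by 0.80 and lower in HDLM-2 by a log2 difference of -0.89. HK2 to HK1 was lower in both lines, with -0.86 in L-428 and -1.20 in HDLM-2. Both genes had signals below 50, so the size of this change depends on the processing. With the offset of 50, HK2 differed from L-540 by -0.28 (L-428) and -0.40 (HDLM-2), and HK1 by 0.066 in each. ENO2 to ENO1 changed least, with -0.18 in L-428 and 0.49 in HDLM-2. The latter is the difference of ENO2 alone, since ENO1 had the same value in L-540 and HDLM-2. Of the 6 clusters called different from L-540 in either line, PFKP was higher and SLC2A1 lower in both L-428 and HDLM-2, the lines whose descriptions name vorinostat. LDHB was higher in L-428 and lower in HDLM-2. The comparisons share the L-540 array.

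The genes that govern the entry of pyruvate into the mitochondrion all had signals below 100. PDHA1 and PDHB encode the subunits of the E1 enzyme of the pyruvate dehydrogenase complex and DLAT its E2 core. PDHA1 had 17.4 (L-540), 35.4 (L-428) and 14.4 (HDLM-2), and DLAT had 18.7, 26.0 and 16.1. PDHB had 38.6, 51.1 and 10.9, with HDLM-2 lowest. Its log2 difference was -1.82 from L-540 and -2.23 from L-428 as deposited, and -0.54 and -0.73 with the offset of 50. For PDHB L-428 fell below L-540 with quantile normalization (log2 difference -0.20). PDHA1 and DLAT in L-540 and HDLM-2 lay between 14.4 and 18.7, and no order is read between these lines. Clusters of all genes whose highest value lay above 20 and not above 100 (4334 clusters) had a median log2 difference of 0.20 between L-428 and L-540, with L-428 higher, and of -0.35 for HDLM-2 minus L-428.

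Pyruvate dehydrogenase kinases switch the complex off by phosphorylation. PDK1, which is induced by hypoxia, had 56.1 in all 3 lines. PDK3 had 16.5 (L-540), 87.4 (L-428) and 34.6 (HDLM-2), a 5.30-fold range with L-428 highest under each scaling. The main cluster of PDK2, shared with SAMD14, had 54.7 in L-540 and L-428 and 68.0 in HDLM-2. PDK4, the kinase raised by fasting in muscle and liver, had 1.93 throughout.

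**Figure D4:**
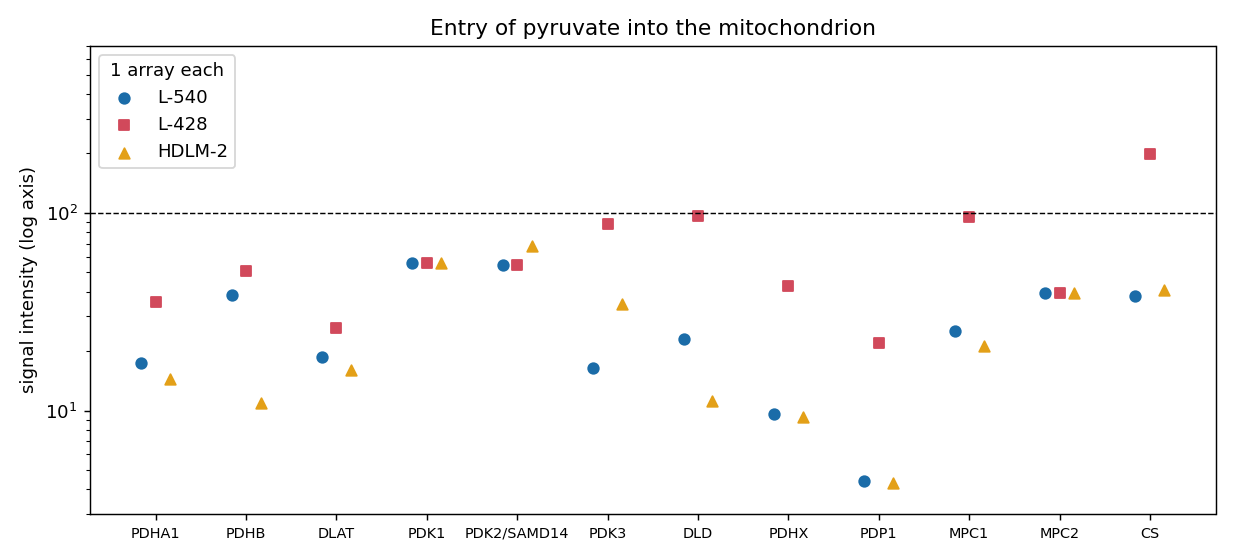
Signal intensity (log axis) of genes of pyruvate entry and of citrate synthase (CS) in L-540 (circles), L-428 (squares) and HDLM-2 (triangles), 1 array each, with the dashed line at 100. L-428 has the highest signal as deposited for every gene shown except PDK1 and MPC2, which have the same value in all 3 lines, and PDK2/SAMD14, which is highest in HDLM-2 (68.0). For PDHB this does not hold with quantile normalization, where L-428 is below L-540, and CS in L-428 (200) is the one signal above 100. DLD, PDHX, PDP1, MPC1 and MPC2 were chosen after their values were seen.

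Partner genes outside the list of members were counted at the same fold and limit, with 1 cluster per gene, whereas the backgrounds of 3.31% higher in L-428 than in L-540 and 3.8% lower in HDLM-2 than in L-428 are over all clusters with a symbol. With at most 2 genes called in a direction per list, no list is read against them. Of 16 measured genes of pyruvate handling, transport and shuttles, 2 were higher in L-428 than in L-540 and lower in HDLM-2 than in L-428, and 0 were called in the opposite direction. They were the aminotransferases of the malate-aspartate shuttle, GOT1 (35.1, 104 and 14.9 in L-540, L-428 and HDLM-2) and GOT2 (14.7, 124 and 24.1). Neither gene met the rule with quantile normalization, nor did GOT1 with the arrays at one median. The log2 differences of GOT2 with quantile normalization were 2.49 (L-428 minus L-540) and -1.61 (HDLM-2 minus L-428). Those of GOT1 were 1.25 and -2.44 at one median and 0.93 and -2.12 with quantile normalization. BSG (basigin), the chaperone that lactate transporters need at the membrane, had 197, 128 and 169, and L-428 passed 2-fold below both other lines with quantile normalization alone. MPC1 of the mitochondrial pyruvate carrier had 25.4, 95.1 and 21.3, and its partner MPC2 39.5 in every line.

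In the tricarboxylic acid cycle, 14 of 18 genes had a cluster, 5 were above 100 in L-428 and 3 in each other line. The share of all clusters with a symbol above 100 was also largest on the L-428 array, at 6.69%. HDLM-2 had a share of 3.56% and L-540 one of 4.02%. The higher count in L-428 is therefore not read as a difference of the cycle. CS, which starts the cycle, had 37.8 (L-540), 200 (L-428) and 40.9 (HDLM-2), and this was called under each scaling. SDHA, the flavoprotein of succinate dehydrogenase, had 251, 191 and 479, with HDLM-2 above L-428 by 1.32 on the log2 scale and above L-540 by 0.93, or 1.07 with quantile normalization. The pentose phosphate pathway had 7 genes measured and 1 above 100. This was PGD, 6-phosphogluconate dehydrogenase, with 458, 681 and 274, where HDLM-2 was below L-428 by a log2 difference of -1.32 (-0.96 with the arrays at one median). Of 12 glycogen genes, PHKA1, a subunit of phosphorylase kinase, alone exceeded 100, with 17.1, 155 and 53.0. With quantile normalization HDLM-2 was less than 2-fold below L-428 (-0.73 on the log2 scale). None of 8 further isoenzymes of the pathway exceeded 30.1.

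Among 16 measured regulators, 2 were above 100 in any line. HIF1A, the hypoxia factor that induces many glycolysis genes, had 46.2 (L-540), 112 (L-428) and 40.4 (HDLM-2), called as deposited and under neither other scaling. With the arrays at one median its log2 differences were 0.97 (L-428 minus L-540) and -1.12 (HDLM-2 minus L-428), and with quantile normalization 0.65 and -0.68. MYC, which also induces glycolysis genes, had 172, 39.9 and 212 in the same order, with L-428 lowest under each scaling. Of the regulators below 100, 3 are named after their values were seen. TXNIP, an arrestin-like protein that lowers glucose uptake, had 4.91, 66.2 and 39.1. EPAS1, the hypoxia factor HIF-2 alpha, had 6.82, 5.63 and 72.1, and MYCN, a relative of MYC, had 57.3, 17.4 and 68.3.

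Each pair of lines gave a median log2 difference of 0 over the 43 clusters, as it did over all clusters with a symbol. With 15 to 18 clusters per pair at the same value, this 0 is set by ties and does not show that the group is unshifted. With the arrays at one median, the medians were -0.31 (L-428 minus L-540), 0.36 (HDLM-2 minus L-428) and 0.049 (HDLM-2 minus L-540). These restate the shift between the arrays, because shifting adds the same constant to every cluster, also outside the members. With quantile normalization the medians were -0.25, 0.28 and 0.025 in the same order, given without the median over all clusters. No shift of the group is read from either. As deposited, in L-428 against L-540, 17 were higher and 11 lower at any size. In HDLM-2 against L-540, 9 were higher and 16 lower, and in HDLM-2 against L-428, 11 were higher and 16 lower. These counts change with the arrays at one median, where each tied cluster takes the direction of the array shift. They have no share over all clusters beside them, and no direction is read from them. Over the 13 clusters above 100 in at least 1 line the median of L-428 minus L-540 was 0.047, that of HDLM-2 minus L-540 was -0.098 and that of HDLM-2 minus L-428 was -0.22. The same medians over the 1331 clusters with a symbol that passed this filter were 0.73, -0.072 and -0.97. A cluster passes the filter through its highest line, so these medians are given as a description.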

How the data were processed

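Each of 3 HL cell lines was measured once, with total RNA on a Human Exon 1.0 ST array. The deposited values are signal intensity per transcript cluster on the linear scale, which the authors computed with RMA in Affymetrix Expression Console. The submitters' processing notes name hg18. Groups follow the cell line given in the labels. Platform annotation named 14432 clusters with 1 gene and 2408 with several, and 5171 have no symbol here. Values were used as deposited. Differences were taken as log2 ratios without offset, and clusters were counted at 2-fold with the higher value above 100. Members, other lists and markers were chosen with earlier results of these data known. Members above 100 in at least 1 line were named with every value, the others by range or beside their isoenzyme, and genes of the other lists where above 100 and 2-fold apart. BSG, MPC1, MPC2, DLD, PDHX, PDP1, SLC2A5, SLC2A8, TXNIP, EPAS1 and MYCN were named outside this rule. For other lists a gene needed a cluster of its own, and the one with the highest mean was used. Alternatives were thresholds of 50 and 200, 4-fold, no filter, an offset of 50, one array median, quantile normalization and clusters with 1 gene. The counting code was checked on copies of 1 array with known changes put in and no noise, which does not show how it behaves on real arrays. Promoters came from RefSeq (GRCh38.p14). The 3 arrays limit the precision. The tools were pandas 2.3.3, numpy 2.4.6 and matplotlib 3.10.9 under Python 3.11.15.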

Additional observations from a re-analysis of the deposited data

How the results depend on the processing

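Of 90 recomputed values, 68 stayed within 1.5 times the value as deposited (for medians and ratios, within a 1.5-fold change). None of the 13 called differences of single clusters changed sign with quantile normalization. An offset of 50 cannot change a sign, and the shift to one array median is too small to reverse a 2-fold difference. Of these 13, 11 were still 2-fold apart with the offset, 11 with one array median and 10 with quantile normalization. The number above 100 in L-428 was 19 with a threshold of 50 and 7 with 200, against 12. Clusters higher in L-428 than in L-540 were 2 at 4-fold, 7 with no filter and 1 above 200, against 4. Clusters lower were 1 at 4-fold, 4 with the arrays at one median and 1 over clusters with 1 gene, against 2. For HDLM-2 against L-540, 2 were higher with no filter and 0 above 200, against 1, and 1 was lower at 4-fold, against 2. For HDLM-2 against L-428, 0 were higher at 4-fold and over clusters with 1 gene, 2 with no filter and 3 with quantile normalization, against 1, and 1 was lower at 4-fold, above 200 and with quantile normalization, 5 above 50 and 6 with no filter, against 3. The cause was not tested. The PFKP to PFKL ratio, recomputed after seeing the data, was above L-540 by 2.01 in L-428 and 1.64 in HDLM-2 with the offset, which shrinks low values such as 8.67. PFKP in L-540 and TPI1 lie at low signals, where no order is read. Ties occur at high signals too, as for ENO1 and ALDOA in L-540 and HDLM-2. No paired analysis was possible because there are no replicates.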
